A study of Mus musculus with 149 samples.

Results

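Lungs of OVA-sensitized mice sampled 24 h after a challenge with 1500 ng thymic stromal lymphopoietin (TSLP) were compared with lungs of OVA-sensitized mice sampled 24 h after 150 ng TSLP. Arrays were placed by their source names: 7 arrays hold the high dose and 8 the low dose, which makes 15 arrays beside the 134 others of the series. The series measured whole-lung RNA of BALB/c mice that were naive or OVA-sensitized and were given saline, buffer or TSLP. The 7 OVA arrays at 500 ng and 24 h served to check the order along the dose, and the 8 OVA arrays at 24 h of the carrier buffer, labelled 0.1% MSA, gave the background. Each array is 1 animal and the animals differ between groups. The series planned 8 for each combination, and an eighth high-dose animal was not analysed here. The mice carry no engineered allele that the labels name, and the high- and low-dose groups share strain, sensitization, tissue and time.

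TSLP is a cytokine made by epithelial cells of barrier tissues such as the airway. It binds a receptor of Crlf2 and Il7r, signals through the kinases Jak1 and Jak2 to Stat5, and acts on dendritic cells, basophils, mast cells and lymphocytes. In the airway it is known for promoting the type 2 cytokines Il4, Il5 and Il13, which drive eosinophil recruitment and mucus production by goblet cells.

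All levels below are log2 values made by RMA, on which a difference of 1 is a doubling, and a difference is the mean at 1500 ng minus the mean at 150 ng unless another is named. A gene was called at an adjusted p of at most 0.05 in the limma fit over 13494 genes. Lung markers were abundant: across the 15 arrays the mean level of 8 alveolar type 2 markers lay between 13.64 and 13.75, and that of 10 alveolar type 1 markers between 12.67 and 13.03. The 3' minus 5' difference of the beta-actin control probe sets, a sign of RNA quality and labelling, was 1.60 ± 0.23 (SD, n = 7) at 1500 ng and 1.39 ± 0.25 (SD, n = 8) at 150 ng, which differed by 0.21 (SE 0.12, two-sided exact permutation p = 0.117, adjusted 0.209 over 5 comparisons). Without replicate 3 at 150 ng it differed by 0.291 (exact permutation p = 0.00874).

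One array stood apart. The animal labelled replicate 1 at 1500 ng had the lowest level of its group in 13 of 13 measured goblet cell and mucus genes. The mean over those genes was 9.27 on this array, 11.24 to 11.87 on the other 6 arrays of its group, 9.03 to 11.07 on the OVA buffer arrays and 7.08 to 8.62 on the naive arrays at 1500 ng and 24 h. Its mean over 8 type 2 cytokine and receptor genes, at 8.45, lay below the 9.20 to 9.45 of the other 6 arrays and inside the buffer range of 8.19 to 9.33. Its antibody genes were at the level of the sensitized group, with a mean of 11.23 over 11 genes beside 9.93 to 10.35 on naive arrays at 1500 ng. Its label was kept, but its goblet cell and type 2 means lay within the buffer range and below the rest of its own group. Not every value did so. Its clock score, described further down, was 0.05, beside -2.73 to -0.58 on the OVA buffer arrays. Its mean over 5 B cell markers was 11.07, beside 9.19 to 10.39 with buffer and 9.80 to 10.57 on the other 6 arrays. Whether the animal received the labelled challenge was not tested. Results that rest on this animal are given with and without it. Of 43 called genes described by name under the selection rule, 27 kept their calls whichever of the 15 arrays was left out.

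Many genes differed between 1500 and 150 ng, by small amounts. Of the 13494 genes, 975 (7.23%) were higher and 1121 (8.31%) lower at 1500 ng, 15.5% in all. Only 1 of the higher and 4 of the lower genes reached a 2-fold difference, and the median size among called genes was 0.25. Without replicate 1 the fit called 2138 genes, 1806 of them also called with all arrays. The arrays of the 2 doses did not overlap at all in 85 genes that were higher (0.63%) and 175 that were lower (1.3%) at 1500 ng.

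No gene passed between 500 and 150 ng in the limma fit (smallest adjusted p = 0.116, and 895 genes at an unadjusted p under 0.05), while 1444 genes (10.7%) passed between 1500 and 500 ng, 670 higher (4.97%) and 774 lower (5.74%). Among the 2096 genes called between 1500 and 150 ng, the 500 ng mean lay between the other 2 means for 1517 (72.4%), against 43.6% of all genes tested. It was nearer to the 150 ng mean for 87.5% of the called genes. The called genes were selected on the outer 2 groups, so these shares are a description and carry no test.

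Camkk2, a calcium/calmodulin-dependent kinase that activates other kinases, had the smallest adjusted p of the comparison, on the brightest of its 4 probe sets. That probe set was 10.75, 11.11 and 11.43 (lowest, median, highest) at 150 ng, 10.86, 10.99 and 11.36 at 500 ng, and 11.51, 11.77 and 12.04 at 1500 ng. All 7 arrays at the high dose lay above all arrays of the low and middle doses. The difference was 0.65 (SE 0.09, adjusted p = 3.97e-07), a 1.56-fold level, and it was 0.75 against 500 ng. The Camkk2 probe sets disagreed: the other 3 differed by 0.31, -0.03 and -0.46, and with the mean of all 4 the gene differed by 0.12 (adjusted p = 0.281) and was not called. The plot of genes that differed between the doses shows the same step for Nat8f3, an N-acetyltransferase family member, which rose by 0.76 (SE 0.13, adjusted p = 1.93e-05). Pak6, a p21-activated kinase, had a median of 7.36 at 150 ng, 7.37 at 500 ng and 8.20 at 1500 ng, again with no overlap (difference 0.73, SE 0.13, adjusted p = 4.89e-05).

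**Figure D1:**
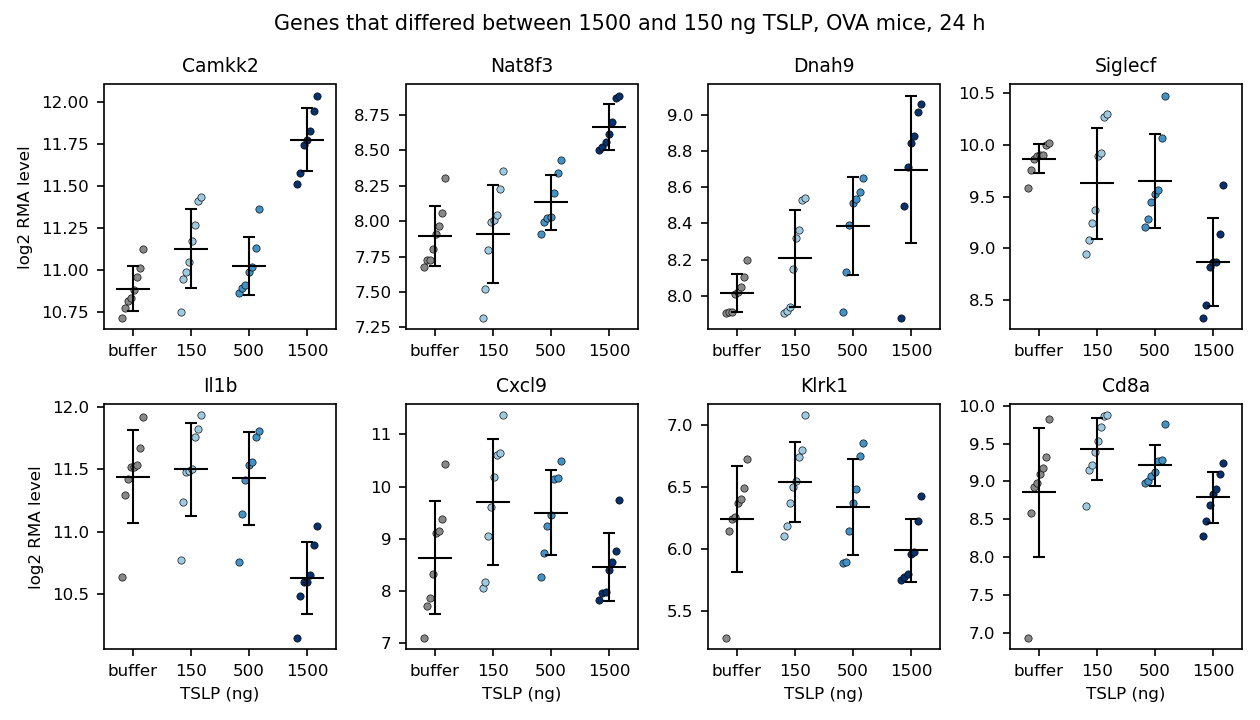
Log2 RMA level (vertical axes) of 8 genes that differed between 1500 and 150 ng TSLP, by challenge (horizontal axes), in OVA mice at 24 h; each point is 1 array and bars give the mean and SD. For Camkk2 and Nat8f3 all 7 arrays at 1500 ng lie above all arrays at 150 ng, and for Il1b the 150 and 500 ng arrays lie alike while the 1500 ng arrays lie lower.

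Other genes among the 12 largest rises were less uniform. Pde2a, a phosphodiesterase that breaks down cyclic nucleotides, rose by 0.77 (SE 0.16, adjusted p = 0.000587), and Adamts20, a secreted metalloprotease, by 0.78 (adjusted p = 0.00299). Vstm2b rose by 0.65 with no overlap between the doses. Fbxw13, an F-box protein, had the largest mean rise, 1.06 (SE 0.30, adjusted p = 0.00837), but 2 arrays carried it. They were replicates 1 and 2 at 9.37 and 7.90, while the other 5 arrays lay at 5.68 or below and the 150 ng arrays at 5.66 or below. Without replicate 1 the Fbxw13 difference was 0.56 (adjusted p = 0.150), and without replicate 2 it was not called either. Chga, a secretory granule protein of neuroendocrine cells, was also highest on replicate 1, at 8.60, and its difference of 0.72 (adjusted p = 0.0300) became 0.50 (adjusted p = 0.152) without it; the call was also lost without replicate 8 at 1500 ng or replicate 6 at 150 ng. Diras2, Mettl21e and Depp1 rose by 0.71, 0.67 and 0.62 and kept their calls without replicate 1. Diras2 was not called in a limma fit on the compared groups alone (adjusted p = 0.056).

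The largest falls held immune and stromal genes. Igkv15-103, an immunoglobulin kappa variable segment, was 8.18, 11.57 and 12.70 (lowest, median, highest) at 150 ng and 7.91, 9.19 and 11.98 at 1500 ng. The 2 ranges overlapped widely, and the fall was 1.95 on the log2 scale (SE 0.56, adjusted p = 0.0092). Individual B cell clones use such segments, and the 11 measured plasma cell and antibody genes had a median difference of -0.05 and none passed. Glrb, a glycine receptor subunit, fell by 1.20 (adjusted p = 0.00119). Scara5, a ferritin receptor of stromal cells, fell by 1.09 (SE 0.31, adjusted p = 0.00925). The median of Scara5 was 9.30 with buffer, 8.06 at 150 ng, 8.20 at 500 ng and 7.40 at 1500 ng. Among these groups the level was highest with buffer and lowest at the high dose. Mmrn1, a protein of lymphatic endothelium and platelets, fell by 0.77 with no overlap (adjusted p = 0.000288). Cd209f, a C-type lectin, fell by 0.84, and Ppp2r2c by 0.89, the latter without a call when replicate 1 (adjusted p = 0.0779) or any of 6 other arrays was left out.

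No type 2 cytokine or receptor passed between the doses on the brightest probe set of each gene. The list had 8 measured members, and their median difference was 0.007 beside -0.005 for all genes. The receptor Il13ra1 differed by -0.08 on its brightest probe set and by 0.25, 0.04 and -0.44 on its others. The probe set at 0.25 was called in a limma fit over all probe sets (adjusted p = 0.0365). Il13, which acts on airway epithelium, was 7.22, 8.36 and 9.49 (lowest, median, highest) at 150 ng, 7.66, 8.58 and 9.79 at 500 ng and 7.03, 8.81 and 9.32 at 1500 ng. These ranges overlapped fully, and the difference was 0.27 (SE 0.31, adjusted p = 0.600), or 0.54 (SE 0.32, adjusted p = 0.252) without replicate 1. Against buffer, Il13 was higher by 0.96 at 150 ng (adjusted p = 0.0302), by 1.44 at 500 ng (adjusted p = 0.0014) and by 1.24 at 1500 ng (adjusted p = 0.000925), 3 comparisons that share their buffer arrays. In these comparisons 7.2%, 7.43% and 21% of all genes were called higher. Il5, the eosinophil growth cytokine, was likewise above buffer by 0.90, 1.11 and 1.07. The eotaxin Ccl11 was above buffer by 0.99, 1.40 and 1.08, and the second eotaxin Ccl24 by 1.29, 1.27 and 1.32. Ccl17, which draws T helper 2 cells, was above buffer by 0.96, 1.40 and 1.20. All 4 passed against buffer at every dose in the fit over all groups, and none of them passed between 1500 and 150 ng. Il4, Clca1 and Chil3 did not pass against buffer at any dose in that fit. Il4 differed from buffer by 0.38, 0.45 and 0.23 at 150, 500 and 1500 ng. Clca1 differed by 0.21, 0.25 and 0.22, and Chil3 by 0.06, 0.13 and 0.08. The mean over 14 named type 2 inflammation genes had a median of 10.61 on the 7 OVA saline arrays at 24 h. It was 9.77 with buffer and 10.44, 10.58 and 10.49 at 150, 500 and 1500 ng. At each dose this median lay above buffer but not above saline, which also held no TSLP. In a fit on the 5 OVA groups at 24 h alone, the calls of Il5, Il13, Ccl11, Ccl17 and Ccl24 at 150 ng were lost (adjusted p from 0.0589 for Ccl17 to 0.0889 for Il13), as was that of Ccl24 at 500 ng (adjusted p = 0.0705), while all 5 genes kept theirs at 1500 ng.

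**Figure D2:**
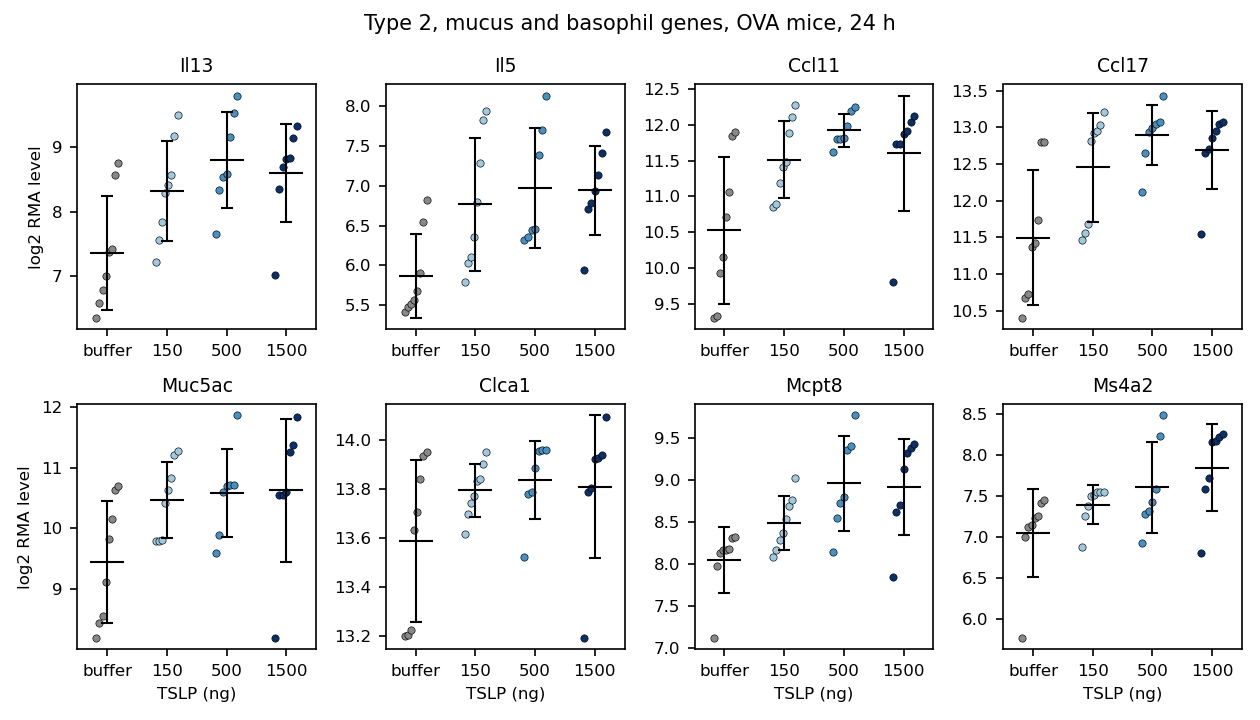
Log2 RMA level (vertical axes) of 8 type 2, mucus and basophil genes by challenge (horizontal axes) in OVA mice at 24 h; each point is 1 array and bars give the mean and SD. One low array at 1500 ng, replicate 1, recurs in every panel, while the other arrays at 1500 ng overlap those at 150 and 500 ng except for Ms4a2, where they lie above the 150 ng arrays.

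Of 12 measured members of the TSLP receptor, Stat5 and alarmin list, 1 rose and 1 fell, a share near the 15.5% of all genes called. Socs2, a feedback inhibitor induced by Stat5, was 9.92, 10.17 and 10.41 at 150 ng and 10.12, 10.71 and 10.84 at 1500 ng, and rose by 0.41 (SE 0.11, adjusted p = 0.0062). It was 10.23 in the median at 500 ng, close to the low dose. Jak2, the kinase at the TSLP receptor, fell by 0.12 (SE 0.04, adjusted p = 0.0242), a call lost without replicate 1 (adjusted p = 0.0517) and without replicate 2, 4 or 6 at 150 ng (up to 0.0871). The receptor chains Crlf2 and Il7r differed by -0.03 and -0.23, Stat5a by -0.12 and Tslp by 0.08, and none passed.

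Goblet cell and mucus genes were higher in the mean but did not pass with all arrays weighted alike. None of 13 measured members was called, although 11 lay above 0 (median 0.16). Spdef, the transcription factor that drives goblet cell differentiation, was 8.34, 8.86 and 9.50 at 150 ng and 7.67, 9.58 and 10.08 at 1500 ng, a difference of 0.52 (SE 0.22, adjusted p = 0.0912). Without replicate 1 it was 0.81 (SE 0.21, adjusted p = 0.00496), and the median of the list was 0.50. Spdef was then the sole called member of the 13, beside 1005 of all 13494 genes called higher. It was also called with all arrays kept when limma's array weights were used (difference 0.66, adjusted p = 0.00644). The mucin Muc5ac differed by 0.16 with all arrays and by 0.56 without replicate 1 (adjusted p = 0.250), and Capn9, a digestive-tract calpain, by 0.56 and 0.93 (adjusted p = 0.0636). Clca1, a secreted goblet cell protein, lay between 13.19 and 14.10 on every array of both doses and differed by 0.02 (SE 0.65, from a spread pooled over all groups of the series).

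Of 12 measured basophil and mast cell genes none passed with all arrays weighted alike. Without replicate 1, 3 of them rose, beside 1005 of all 13494 genes. Ms4a2, the beta chain of the IgE receptor, was 6.88, 7.51 and 7.56 at 150 ng, and 6.80 on replicate 1 but 7.59 to 8.26 on the other 6 arrays at 1500 ng. Those 6 arrays lay above all 8 low-dose arrays. The difference was 0.45 (SE 0.19, adjusted p = 0.0864) with all arrays and 0.62 (SE 0.19, adjusted p = 0.0157) without replicate 1. The basophil protease Mcpt8 went from 0.43 to 0.60 (adjusted p = 0.0460) and Cyp11a1, the first enzyme of steroid synthesis, from 0.32 to 0.47 (adjusted p = 0.0496). The other probe set of Cyp11a1 differed by -0.03 with all arrays. With the mean of its probe sets Cyp11a1 differed by 0.14 (adjusted p = 0.440). With all arrays kept and array weights, Ms4a2 (0.57, adjusted p = 0.0118) and Mcpt8 (0.58, adjusted p = 0.0296) were called too. With the fat score described further down 1 of the 12 genes rose, beside 814 of all 13494 genes. The mast cell genes Cpa3 and Kit differed by -0.02 and -0.15 and did not pass, nor did Fcer1a, the alpha chain of the same receptor, at 0.11. In bulk lung, more cells of a type and more RNA per cell cannot be told apart.

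Of 5 measured eosinophil genes 1 fell, beside 8.31% of all genes, and 4 of the 5 differences were negative. Siglecf, a lectin of eosinophils and alveolar macrophages, was 8.94, 9.63 and 10.30 at 150 ng, 9.21, 9.52 and 10.47 at 500 ng and 8.33, 8.87 and 9.61 at 1500 ng. All 7 high-dose arrays lay below the low-dose mean, and Siglecf fell by 0.76 (SE 0.17, adjusted p = 0.00119). The fall was 0.88 on the log2 scale without replicate 1. Siglecf also stands in the alveolar macrophage list, where 6 of 8 measured members were lower in the mean and Atp6v0d2, a proton pump subunit, fell by 0.43 (SE 0.13, adjusted p = 0.0123). In whole lung the cell type behind the Siglecf fall cannot be told apart. Alox15, a lipoxygenase of eosinophils and macrophages, differed by 0.63 without passing (adjusted p = 0.382). Ccr3, the eotaxin receptor, was spread within the low dose: replicates 2, 4 and 6 lay between 7.26 and 8.00 and the other 5 at 5.39 or below. At 1500 ng no array exceeded 5.21, and the difference of -0.81 did not pass (SE 0.30, adjusted p = 0.0533). Ccr3 lay near the threshold: it was called with array weights (-1.03, adjusted p = 0.00642), with the fat score (-0.85, adjusted p = 0.0469) and when any of 5 single arrays was left out. It was not called with the clock score described further down (-0.49, adjusted p = 0.304). Nor was it called with beta-actin as a covariate (-0.69, adjusted p = 0.108) or with quantile normalization (-0.75, adjusted p = 0.0843). The same 3 low-dose animals were the highest in Epx, the eosinophil peroxidase, at 8.40 to 9.13, and in Prg2, the granule major basic protein, at 8.26 to 8.96. Epx differed by -0.68 (adjusted p = 0.143) and Prg2 by -0.42 (adjusted p = 0.373). Against 500 ng, Ccr3 was lower by 1.06 (adjusted p = 0.0158) and Epx by 0.99 (adjusted p = 0.0424) at 1500 ng, so both passed there.

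Among inflammatory genes 1 fell. Il1b, a cytokine of activated myeloid cells, was 10.77, 11.50 and 11.93 at 150 ng, 10.75, 11.54 and 11.81 at 500 ng and 10.15, 10.60 and 11.05 at 1500 ng. Only the lowest array at 150 ng fell within the high-dose range. Il1b fell by 0.87 on the log2 scale (SE 0.22, adjusted p = 0.00354) and was the sole called member among 15 neutrophil chemokines and acute inflammation genes, whose median was -0.09; that share is below the 8.31% of all genes called lower. Against buffer Il1b differed by -0.81 at 1500 ng (adjusted p = 0.00203), where 17.5% of all genes were called lower. It differed from buffer by 0.06 at 150 ng and by -0.01 at 500 ng, and neither passed. Of 11 interferon-response genes, 10 were lower in the mean (median -0.42) and 3 fell, against 8.31% of all genes: Ifit2 by 0.51, Cxcl9 by 1.25 and Iigp1 by 0.51. Cxcl9, a chemokine for activated T cells, ranged from 8.06 to 11.36 at 150 ng and from 7.83 to 9.74 at 1500 ng, and its call was lost without replicate 1 (difference -1.15, adjusted p = 0.0573) and with the mean of its probe sets (-0.82, adjusted p = 0.0519). Ifit2, an interferon-induced translation inhibitor, kept its call there (difference -0.57, adjusted p = 0.00111). Among 8 neutrophil markers, all lower in the mean (median -0.38), Cxcr2 fell by 0.74 and S100a9 by 0.30, and neither was called without replicate 1 (adjusted p = 0.0548 and 0.0842). Of these, Ifit2 and Il1b kept their calls whichever array was left out. Iigp1 lost it for 8 of the 15 arrays (adjusted p up to 0.150), Cxcl9 for 6 (up to 0.0984), S100a9 for 11 (up to 0.107) and Cxcr2 for 2 (replicate 1 at 1500 ng and replicate 8 at 150 ng, up to 0.0635).

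All 9 measured NK and cytotoxic markers were lower in the mean (median -0.43), and 5 fell, against 8.31% of all genes: Nkg7, a granule protein, Klrk1, an activating receptor, the protease Gzmb, the NK receptor Ncr1 and the transcription factor Eomes. Nkg7 was 10.28, 10.92 and 11.12 at 150 ng, 10.23, 10.67 and 11.11 at 500 ng and 10.04, 10.17 and 10.55 at 1500 ng, and fell by 0.58 (SE 0.15, adjusted p = 0.00398). Klrk1 fell by 0.55 (SE 0.15, adjusted p = 0.0054) and Gzmb by 0.54 (SE 0.16, adjusted p = 0.014). All 7 high-dose arrays lay below the low-dose mean in each of these 3 genes, and all 3 kept their calls without replicate 1, while Ncr1 (adjusted p = 0.0553) and Eomes (adjusted p = 0.0687) did not. None of the 3 passed against buffer at 150 or 500 ng, and Gzmb alone was below buffer at 1500 ng (difference -0.46, adjusted p = 0.0196). Of 11 T cell markers 3 fell, against 8.31% of all genes. Cd3d, a chain of the T cell receptor complex, fell by 0.45, the cytotoxic co-receptor Cd8a by 0.64 and the costimulatory receptor Cd28 by 0.64. No T cell marker was called without replicate 1, where the list's median was -0.18 against -0.24 with all arrays. Leaving out other single arrays also ended calls, for Cd3d with 9 of the 15 arrays, Cd8a with 7, Cd28 with 5 and Ncr1 with 5, while Nkg7, Klrk1 and Gzmb kept theirs each time. For Cd3d, Cd8a and Cd28 these arrays included replicates 2, 4 and 6 at 150 ng. The same 3 animals were the highest of the low dose in Ccr3, Epx and Prg2. Leaving out each of them also ended the calls of Cxcl9 and Iigp1.

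**Figure D3:**
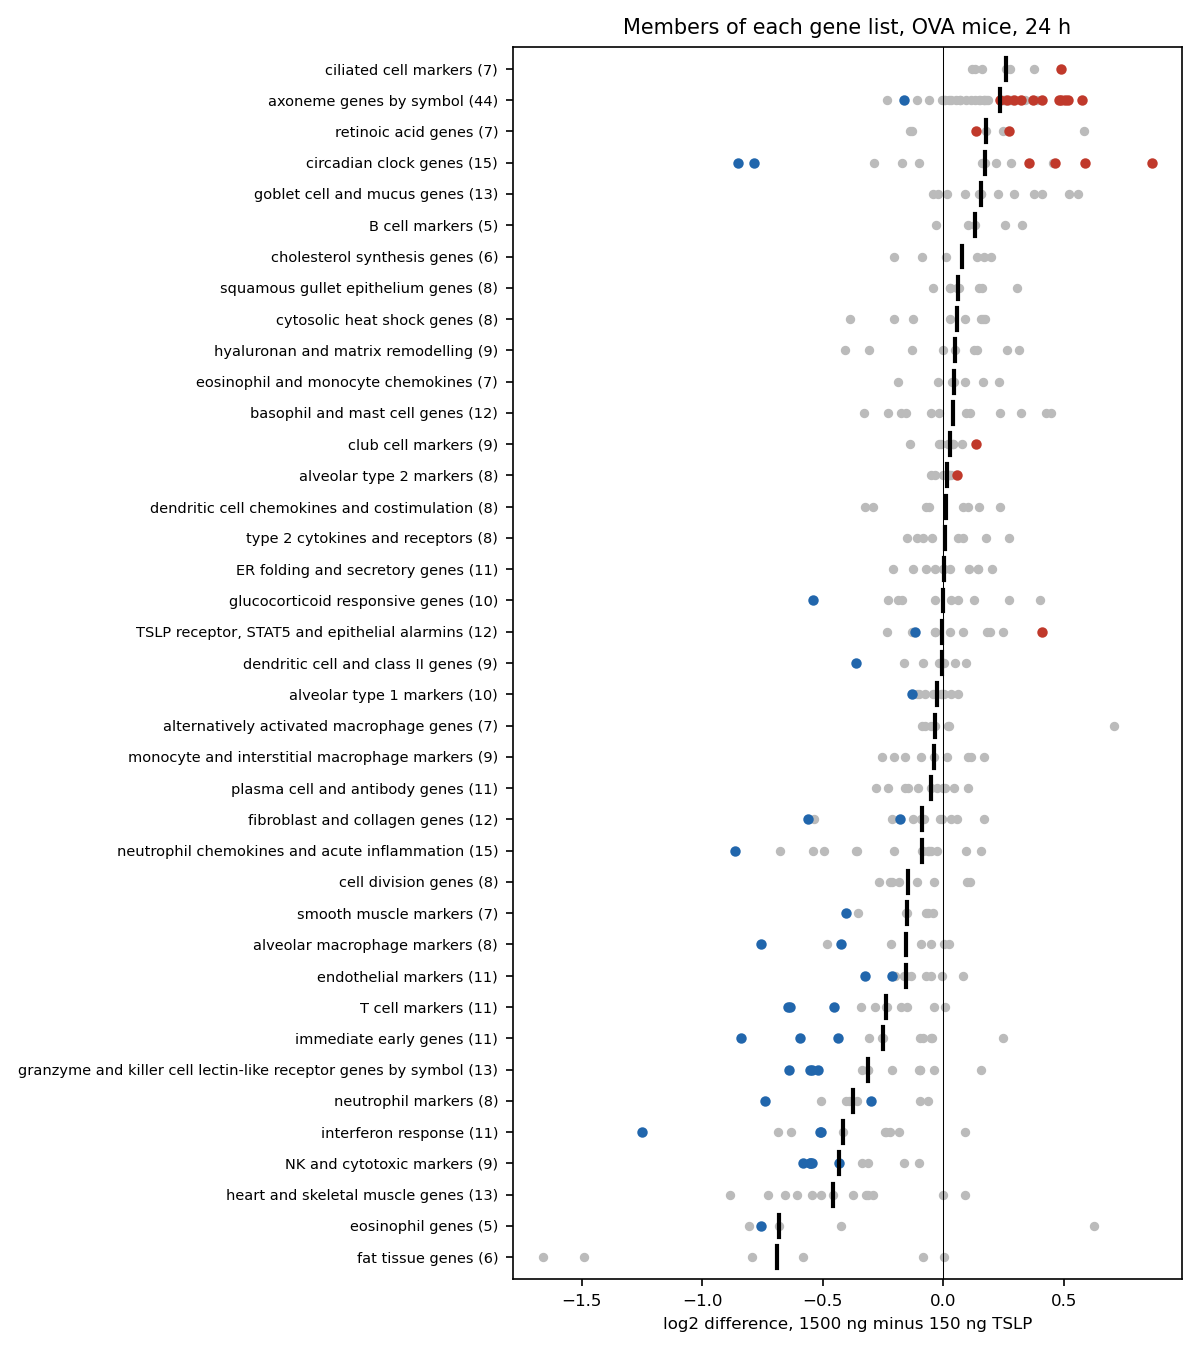
Log2 difference between 1500 and 150 ng TSLP (horizontal axis) for each measured member of the gene lists (vertical axis, number of members in brackets), OVA mice at 24 h. Red and blue points are members called higher and lower, grey points did not pass, and the black bars are list medians, which run from -0.69 for fat tissue genes to 0.26 for ciliated cell markers.

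All 7 measured ciliated cell markers were higher in the mean (median 0.26). One was called, beside 7.23% of all genes: Dnah9, a heavy chain of the outer dynein arm that moves cilia, which rose by 0.49 (SE 0.14, adjusted p = 0.00824). Dnah9 was 7.91, 8.23 and 8.54 at 150 ng, 7.88 on replicate 1 and 8.50 to 9.06 on the other 6 arrays at 1500 ng. Without replicate 1 its difference was 0.63 (adjusted p = 0.000932). In a limma fit on the compared groups alone Dnah9 was not called (adjusted p = 0.062). Foxj1, the transcription factor of motile cilia, differed by 0.37 and did not pass (adjusted p = 0.149). In a wider list of 44 axoneme genes taken by symbol after their values were seen, 11 were called higher and 1 lower, beside 7.23% and 8.31% of all genes, with Drc1, a part of the dynein regulatory complex, at 0.58. Without replicate 1 the counts were 19 and 1, beside 1005 and 1133 of all 13494 genes.

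In 5 of 15 measured circadian clock genes the arrays of the 2 doses did not overlap. The clock is a feedback loop in which Arntl pairs with Clock or Npas2, binds the E-box sequence CACGTG and drives the Per, Cry and Nr1d repressors and the output factors Tef, Dbp and Hlf. The stretches around that motif are shown for the called members in which it was found. They are 60 bases of the RefSeq promoter windows of GRCm38.p6, on the plus strand, and capitals mark CACGTG, which reads the same on both strands. The Per1 stretch lies at chr11:69098756-69098815, with the motif 166 bases before the gene's start. The Tef stretches, at chr15:81802519-81802578 and chr15:81811249-81811308, hold the motif 127 and 138 bases before 2 starts of the gene.
Per1: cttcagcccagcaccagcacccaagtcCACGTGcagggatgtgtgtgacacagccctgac
Tef, window 1: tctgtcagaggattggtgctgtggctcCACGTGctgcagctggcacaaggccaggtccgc
Tef, window 2: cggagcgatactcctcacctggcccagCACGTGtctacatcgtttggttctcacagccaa
A search of the 300-base windows for CACGTG found it in 4 of the 14 measured clock genes with a window (28.6%) and in 8.09% of all genes with one; a match is a description and no site.

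Of 15 measured clock genes, 4 rose and 2 fell, against 7.23% and 8.31% of all genes, and the 5 without overlap compare with 1.93% of all genes. Per2, a repressor of the loop, was 8.40, 8.83 and 9.36 at 150 ng, 8.11, 9.34 and 9.71 at 500 ng and 9.36, 9.69 and 10.02 at 1500 ng. It rose by 0.86 (SE 0.22, adjusted p = 0.00311), a 1.82-fold level. Tef, an output transcription factor, was 11.72, 12.21 and 12.42 at 150 ng and 12.46, 12.57 and 12.71 at 1500 ng, and rose by 0.46 (SE 0.10, adjusted p = 0.000868). The related factor Hlf rose by 0.36 and the repressor Per1 by 0.59 (SE 0.21, adjusted p = 0.0435). The activators moved the other way. Arntl was 8.91, 9.58 and 10.01 with buffer, 8.59, 9.10 and 9.38 at 150 ng, 8.27, 8.80 and 9.14 at 500 ng and 7.88, 8.24 and 8.47 at 1500 ng. Each group lay lower than the one before in the median, and Arntl fell by 0.79 between 150 and 1500 ng (SE 0.17, adjusted p = 0.000795). Npas2 fell by 0.85 (SE 0.21, adjusted p = 0.0031); its dimmer second probe set differed by 0.07, and with the mean of both the fall was 0.39 (adjusted p = 0.0158). All 6 called clock genes kept their calls without replicate 1.

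**Figure D4:**
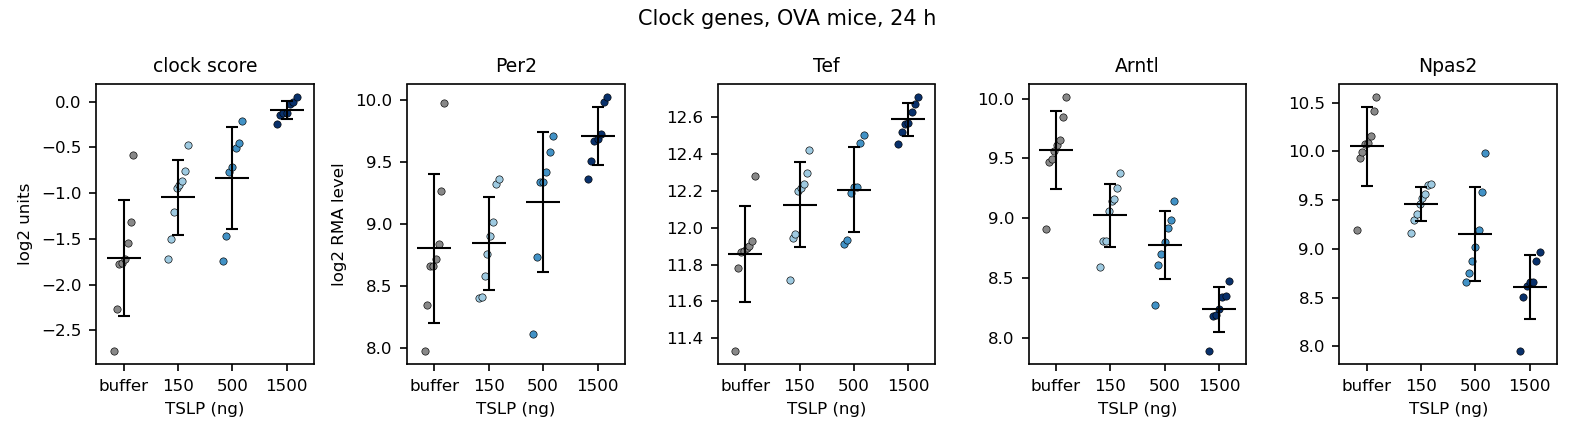
Clock score (log2 units) and log2 RMA levels of 4 clock genes (vertical axes) by challenge (horizontal axes) in OVA mice at 24 h; each point is 1 array and bars give the mean and SD. The 7 arrays at 1500 ng lie together and apart from all 150 ng arrays in every panel except Per2, while the 500 ng arrays are spread widely. For Per2 the highest 150 ng array and the lowest 1500 ng array lie at nearly the same level.

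A clock score was formed from the mean of 7 measured repressor and output genes less that of 4 activator-arm genes, each centred over all arrays. It ran from -1.72 to -0.47 at 150 ng, from -1.74 to -0.21 at 500 ng and from -0.25 to 0.05 at 1500 ng. The high-dose arrays spanned a narrow range, with an SD of 0.10 against 0.41 and 0.56. The hour of the day at sampling is not given in the sources used here. With the score as a covariate 1706 genes were called, 1369 of them among the 2096, and the groups above did not fare alike. The Camkk2 probe set described above stood at 0.61, and Siglecf (-0.62, adjusted p = 0.0133), Nkg7 (-0.47, adjusted p = 0.0322) and Dnah9 (0.45, adjusted p = 0.0286) stayed called. Cxcl9 (-0.83, adjusted p = 0.192), Cxcr2 (-0.45, adjusted p = 0.196), Cd8a (-0.54, adjusted p = 0.109) and Gzmb (-0.40, adjusted p = 0.104) did not. With that covariate 2 of 9 cytotoxic markers, 1 of 11 interferon-response genes, 0 of 11 T cell markers and 2 of 44 axoneme genes were called in their earlier direction. Of all 13494 genes, 666 were called higher and 1040 lower in that fit.

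Immediate early genes encode transcription factors induced rapidly by stimulation. Of 11 measured members 3 fell at the high dose, against 8.31% of all genes: Egr3 by 0.84 (SE 0.21, adjusted p = 0.00254), Egr1 by 0.44 (adjusted p = 0.0454) and Nr4a1 by 0.59 (adjusted p = 0.0454). Egr1 was 12.05 to 12.53 at 150 ng, 11.63 to 11.91 at 500 ng and 11.56 to 12.19 at 1500 ng, so for this gene the middle dose lay with the high dose. The other probe set of Egr3 differed by 0.16, and with the mean of both the fall was 0.34 (adjusted p = 0.0230). Egr3 was above buffer at 150 ng by 0.64 (adjusted p = 0.0284) and not at 500 or 1500 ng (0.21 and -0.20). Egr3 kept its call whichever array was left out, while Egr1 and Nr4a1 each lost it for 9 of the 15 arrays (adjusted p up to 0.0940 and 0.160).

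Markers of tissue carried beside the lung varied between animals. Adipoq, a fat cell hormone, ranged from 5.34 to 10.63 at 150 ng and from 4.20 to 8.93 at 1500 ng (difference -1.66, SE 0.74, adjusted p = 0.110). None of 6 fat tissue genes passed (median -0.69), nor any of 13 heart and skeletal muscle genes (median -0.46). Of 12 fibroblast and collagen genes (median -0.09) 2 fell, against 8.31% of all genes: Dcn, a matrix proteoglycan, by 0.56 and Col1a2, a chain of collagen I, by 0.18. Dcn lost its call for 8 of the 15 arrays left out (adjusted p up to 0.162) and Col1a2 for 7 (up to 0.0831). With the mean of the fat genes as a covariate, an alternative added after the data were seen, Dcn was -0.33 (adjusted p = 0.125), Scara5 -0.73 (adjusted p = 0.0195) and Col1a2 -0.18 (adjusted p = 0.0429, still called), and 1778 genes were called.

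Naive mice allowed a test of whether the dose difference depended on sensitization. In naive lungs at 24 h, 71 genes (0.526%) passed between 1500 and 150 ng. The interaction itself called no gene in the limma fit (smallest adjusted p = 0.0995, and 1208 genes at an unadjusted p under 0.05), so the differing counts do not show that sensitized mice differed from naive mice. Lcat, an enzyme of cholesterol transport, came nearest: it fell by 0.69 in OVA mice with no overlap (adjusted p = 3.01e-05) and differed by 0.07 in naive mice, an interaction of -0.76 (adjusted p = 0.0995). Slc25a36, a mitochondrial carrier, had an interaction of 0.25, from a rise of 0.13 in OVA mice and a difference of -0.12 in naive mice. Per2 and Arntl differed by 0.56 and -0.57 in naive mice too, without passing there.

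The dose difference at 24 h differed from that at 6 h in many genes, beside an unequal beta-actin measure at 6 h. The test of the 24 h difference against the 6 h difference called 6517 genes (48.3%), 3589 (26.6%) with the higher difference at 24 h and 2928 (21.7%) with the lower, and at 6 h itself 6817 genes (50.5%) passed between 1500 and 150 ng in OVA mice. Il1b was higher at the high dose by 0.69 at 6 h, against -0.87 at 24 h. The brightest Camkk2 probe set ran from -0.68 at 6 h to 0.65 at 24 h, a change of 1.32, but with the mean of its 4 probe sets the change was 0.076 (adjusted p = 0.567) and was not called. Cxcl9 ran from 1.35 at 6 h to -1.25 at 24 h. Ppil4, a cyclophilin-type isomerase with the smallest p of the test, ran from 0.65 to -0.39 (difference -1.04, adjusted p = 5.13e-17). At 6 h the beta-actin 3' minus 5' difference was also far from equal between the doses, by -1.03 (SE 0.08, exact permutation p = 0.000155, adjusted 0.000777). It ran from 1.06 to 1.49 at 1500 ng and from 2.09 to 2.52 at 150 ng, with no overlap. At 6 h dose and this measure therefore cannot be told apart. With the beta-actin measure as a covariate the test of time called 2132 genes in place of 6517, while the 24 h comparison of the doses called 1881 in place of 2096.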

How the data were processed

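Lung RNA of 149 BALB/c mice was hybridised to Affymetrix arrays, 1 per animal. The authors deposited log2 values from RMA, as the submitters' processing notes name it, with no version or filter stated. There are 26166 probe sets, with array medians from 8.968 to 9.164. Such values carry no counts, so the number of arrays limits the precision. Through the platform's annotation 22892 probe sets named 1 gene, 260 several and 3014 none; the identifiers of 22834 were in RefSeq. The probe set with the highest mean stood for each of 13494 genes, 5715 of which had more than 1.

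Genes were tested with limma 3.58.1 (R 4.3.3), 1 mean per group over 149 arrays and eBayes, two-sided, Benjamini-Hochberg at 0.05 over all genes. Beta-actin was tested by exact permutation. Named genes were the 12 largest rises and falls past the threshold, leaving out predicted genes, up to 4 members with the smallest p per described list, 14 measured genes of type 2 inflammation (Retnla and Arg1 were not analysed here) and 3 genes per direction for each interaction; further list members and axoneme genes were named after their values were seen. The comparison and the lists were chosen with earlier results of these data known.

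The animal numbers were not taken as pairs: over 7 shared numbers the deviations of 1500 and 150 ng arrays correlated from -0.239 to 0.422, and 3 exceeded 0.1. Alternatives were other probe set choices, filters, normalization, weights, priors, blocks, covariates, subsets and leaving out each array.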

Additional observations from a re-analysis of the deposited data

Results flagged for a closer look

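Among 270 groups of arrays examined, 29 had 1 array far from the others of its group; chance gives about 1 in 20 groups. Replicate 1 at 1500 ng was the far array, on the low side, for 11 genes of the type 2, mucus, basophil and T cell lists. Its levels were 7.03 for Il13, 10.47 for Il4ra, 7.67 for Spdef, 7.85 for Capn9, 11.38 for Fcgbp, 6.96 for Cyp11a1, 6.36 for Ctla4, 9.80 for Ccl11, 11.55 for Ccl17, 13.19 for Clca1 and 8.20 for Muc5ac. Their nearest neighbours in the group lay 0.58 or more of the group's range away. Other far arrays at 1500 ng were high for Depp1 (10.87), Glrb (6.94), Stat5a (11.30), Oasl2 (10.51) and Eln (12.93) and low for Mmrn1 (7.28) and Ccr3 (4.68). At 500 ng they were high for Fbxw13 (6.71), Diras2 (10.66), Vstm2b (7.63), Cd8a (9.76) and Ucp1 (8.29) and low for Clca1 (13.52). At 150 ng they were low for Igkv15-103 (8.18), Glrb (5.93) and Ms4a2 (6.88) and high for Ucp1 (9.74), and the beta-actin 3' minus 5' difference of 1 array was high (1.94).

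For 58 named genes the dose difference at 24 h differed from that at 6 h in the limma fit, 17 upward and 41 downward; beside them stands the beta-actin difference of -1.03 between the doses at 6 h. Values are the 24 h difference minus the 6 h difference. Among the genes of the largest rises the change was 1.49 for Pde2a, 1.36 for Adamts20, 1.33 for Diras2, 1.32 for the brightest Camkk2 probe set (0.076 with the mean of its 4 probe sets), 1.27 for Fbxw13, 1.06 for Vstm2b, 1.02 for Nat8f3, 0.99 for Depp1, 0.96 for Chga, 0.76 for Mettl21e and 0.56 for Pak6. Dnah9 changed by 1.11, Mcrip1 by 0.95, Lrrc14 by 0.82, Tef by 0.62, Tslp by 0.45 and Stat6 by 0.40. Downward, the stromal and fat genes stood at -2.64 for Adipoq, -2.57 for Car3, -2.21 for Scara5, -1.53 for Lum, -1.47 for Dcn and -0.31 for Col1a2. Interferon and inflammation genes stood at -2.60 for Cxcl9, -1.55 for Il1b, -1.49 for Il1rn, -1.35 for Iigp1, -1.25 for Ifit2 and -0.73 for Il1a. Neutrophil genes stood at -1.29 for Cxcr2, -0.51 for S100a8 and -0.50 for S100a9, and eosinophil genes at -1.45 for Ccr3 and -0.75 for Siglecf. T and cytotoxic cell genes stood at -1.47 for Cd28, -1.35 for Ncr1, -0.91 for Klrk1, -0.82 for Cd3d, -0.79 for Gzmb, -0.79 for Ctla4 and -0.78 for Nkg7. Clock and immediate early genes stood at -1.14 for Arntl, -0.95 for Npas2 and -0.68 for Egr3. The type 2 and TSLP pathway genes stood at -1.05 for Ccl11, -0.70 for Il4, -0.58 for Gata2, -0.55 for Il13ra1, -0.52 for Jak1, -0.33 for Il4ra, -0.32 for Stat5a and -0.23 for Jak2. The remaining values were -2.89 for Igkv15-103, -1.84 for Cd209f, -1.47 for Mmrn1, -1.04 for Ppil4, -0.74 for Polr2j and -0.49 for Cul3.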

How the results depend on the processing

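No called value of a named gene changed sign under any alternative run, each on its chosen probe set or the mean of its probe sets. Single probe sets that were not chosen had the opposite sign for Camkk2 (-0.46 and -0.03), Egr3 (0.16) and Npas2 (0.07). Of 88 named genes, 43 were called between 1500 and 150 ng; 17 of these kept their calls in every alternative and 26 lost them in some, while 14 of the 45 others gained a call in some. The 2096 calls became 3767 probe sets when each was tested on its own, 3157 with array weights and 918 at an adjusted p of 0.01. Between 500 and 150 ng array weights called 12 genes, against 0. Between 1500 and 500 ng the 1444 calls became 2724 probe sets, 3801 with array weights, 831 in a fit on the compared groups alone and 559 at 0.01. The test of sensitization called 2 probe sets, 318 genes with array weights and 5 with beta-actin as a covariate, and the test of time 12629 probe sets and 2132 genes with beta-actin. The share of called genes with the 500 ng mean between the others, 72.4%, was 69.6% without the dimmest 40% of genes, 51.4% with array weights, 74.5% with the compared groups alone, 74.4% with the clock score and 74.5% at 0.01. The cause of these shifts was not tested, beyond the stricter threshold and the larger number of probe sets.

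With the animal number as a replicate block 1962 genes were called between 1500 and 150 ng, Ccr3 among them (-0.82, adjusted p = 0.0398); 1 of the arrays compared lay closest to its own number, which gives no sign that the numbers pair the animals. Leaving out 1 array at a time gave 1488 (without 150 ng replicate 7) to 2561 (without 150 ng replicate 3) called genes, a share between of 67.2% to 80.4%, and a beta-actin difference of 0.149 to 0.291 (exact permutation p from 0.00874, without 150 ng replicate 3, to 0.245). GAPDH in place of beta-actin was not run, since no GAPDH control probe sets were used here. The number of arrays, 7 and 8, limits the precision of every difference.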
